A study of Mus musculus with 12 samples.

Results

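Heat shock proteins and chaperones help other proteins to fold, refold or be degraded, and 10 mouse genes of this class were described across the 3 turns of the cochlea. The genes were chosen by name, with earlier results of these data known, as well-known representatives of the main chaperone families. They were Hspa1a, Hspa1b, Hspa5, Hspa8, Hspb1, Hsp90aa1, Hsp90ab1, Dnajb1, Hsph1 and Hspd1. All 10 were among the 19505 gene names on the array, and they were measured by 73 of its 165865 usable probes. The samples were the apical, middle and basal turns (apex, middle and base below) of cochleae of male C57BL/6 mice aged 6 weeks, with no treatment or engineered allele given, and 4 single-color exon arrays were hybridized for each turn. Each turn had been dissected with its lateral wall, organ of Corti and spiral ganglion neurons, so that every sample was a mixture of cell types, and 25 ng of total RNA was labeled per array.

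Chaperones of the HSP70 family bind exposed stretches of unfolded proteins in cycles of ATP hydrolysis, and they are assisted by HSP40 proteins, which stimulate the ATPase, and by HSP110 proteins, which exchange the nucleotide. HSP90 proteins act later, on nearly folded clients such as kinases and steroid receptors, whereas small heat shock proteins hold unfolded proteins without using ATP. Heat shock factor 1 switches on the stress-inducible members, and in the cochlea the HSP70 response is known for protecting hair cells from drugs and noise.

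The probes behind the only gene called between turns and behind the inducible HSP70 pair are shown first, in lower case, as the array design gives them. Probe positions below are on mm9, in which Hspb1 lies on the plus strand of chromosome 5 and Hspa1a on the minus strand of chromosome 17. The first pair of probes below measures Hspb1, at chr5:136364245-136364304 and chr5:136364923-136364982, and the third is the only probe of Hspa1a, at chr17:35107117-35107176.
Hspb1 probe from transcript base 456: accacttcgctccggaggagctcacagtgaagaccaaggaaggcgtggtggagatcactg
Hspb1 probe from transcript base 520: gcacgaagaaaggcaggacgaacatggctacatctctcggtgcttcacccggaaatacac
Hspa1a probe from transcript base 1925: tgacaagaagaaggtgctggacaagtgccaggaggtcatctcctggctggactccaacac

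The array annotation lists this Hspa1a probe for the Hspa1b transcript as well, and the same holds for the Hspa1b probe at base 11. Only the Hspa1b probe at base 2674 is listed for 1 of the pair alone. Hspa1a and Hspa1b encode nearly the same inducible HSP70 protein, and their signals are therefore reported as uncertain. Of the other genes, 2 of 10 probes of Hsp90ab1, 2 of 8 of Hspa8 and 1 of 10 of Hsp90aa1 are also listed for another RNA, and all 8 probes of Hspa5 are listed for a second transcript entry of Hspa5 itself.

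The 250 bases before the transcription start, taken from RefSeq on GRCm38.p6, are printed for 3 genes because they show the elements through which chaperone genes are known to be switched on. In Hspa1a (chr17:34972157-34972406, minus strand) and Hspb1 (chr5:135887669-135887918, plus strand) the capitals mark GAANNTTC, which is a pair of heat shock element units. In Hspa5 (chr2:34771840-34772089, plus strand) they mark the endoplasmic reticulum stress element, which was searched as CCAAT and CCACG with 9 bases of any kind between them.
Hspa1a upstream: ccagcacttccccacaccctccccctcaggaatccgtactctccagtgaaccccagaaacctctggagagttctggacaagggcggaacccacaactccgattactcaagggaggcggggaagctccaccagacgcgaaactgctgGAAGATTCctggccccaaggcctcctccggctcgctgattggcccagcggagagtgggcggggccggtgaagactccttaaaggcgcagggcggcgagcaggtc
Hspb1 upstream: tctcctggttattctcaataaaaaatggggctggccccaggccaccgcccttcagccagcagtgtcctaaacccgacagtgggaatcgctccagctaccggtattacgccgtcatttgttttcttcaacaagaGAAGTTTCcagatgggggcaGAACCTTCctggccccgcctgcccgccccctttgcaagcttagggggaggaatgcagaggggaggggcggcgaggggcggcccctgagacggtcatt
Hspa5 upstream: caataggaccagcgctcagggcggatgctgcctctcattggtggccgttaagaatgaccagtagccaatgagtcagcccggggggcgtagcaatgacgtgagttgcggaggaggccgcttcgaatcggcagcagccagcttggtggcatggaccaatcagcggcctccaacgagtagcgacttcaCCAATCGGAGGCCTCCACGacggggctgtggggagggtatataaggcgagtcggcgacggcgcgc

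Windows reaching from 250 bases before to 50 bases after the start were given for 7 of the 10 genes, and Hspa8, Hsp90aa1 and Hsp90ab1 were not among them. Both strands were searched, although both pair motifs read the same on either strand. GAANNTTC occurred in windows of 5 of the 7 genes, at 7.86% of all 32851 mouse windows, and began 104 bases before the start in Hspa1a and Hspa1b and 117 and 97 bases before it in Hspb1. The opposite pair, TTCNNGAA, occurred in Hsph1 and in 1 of the windows of Hspd1, against 8.52% of all windows. The 3-unit form, in which GAANNTTC is followed after 2 bases by a further GAA and which overlaps both pairs, was found in the same 2 genes and in 0.603% of all windows. The stress element of Hspa5 began 65 bases before the start and was found in 0.119% of all windows. Of the 250 upstream bases of Hspa1a, 247 were identical in Hspa1b. These matches are descriptions of letters only.

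The 12 arrays were alike in brightness, with a 75th percentile of signal between 534.6 and 722.1 before scaling, between 77.4% and 81.4% of spots well above background, and 0 saturated spots outside the controls. Marker genes of the labeled tissue were measured in every turn, but the mixture of cells differed along the cochlea. Between apex and base, 8 of 9 hair cell markers, 8 of 9 spiral ganglion neuron markers and 6 of 7 Schwann cell markers were called higher in the apex, while 7 of 9 stria vascularis, 4 of 6 spiral ligament fibrocyte and 7 of 7 macrophage markers were called higher in the base. Each of the 3 slides held the arrays of 1 turn and no others, so slide and turn cannot be told apart in any comparison. According to the methods, 4 mice were dissected and the arrays of a turn were from different mice, so the 3 turns came from the same animals, although no source used here states that a sample number marks the same mouse in each turn.

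Of the 73 probes, 72 gave a signal well above background on each of the 12 arrays, including every probe of 9 genes. The exception was the Hspa1b probe at base 11, which did so on 2 of 4 apex, 1 of 4 middle and 1 of 4 base arrays. A gene's signal below is the scaled signal averaged over its probes on the log2 scale, and "called" means a limma adjusted p under 0.05 over all genes. Signals of different genes depend on their probes and were not set against each other, but sums over some gene lists are given below. In a mixed tissue, fewer cells of a type and less RNA per cell cannot be told apart.

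**Figure D1:**
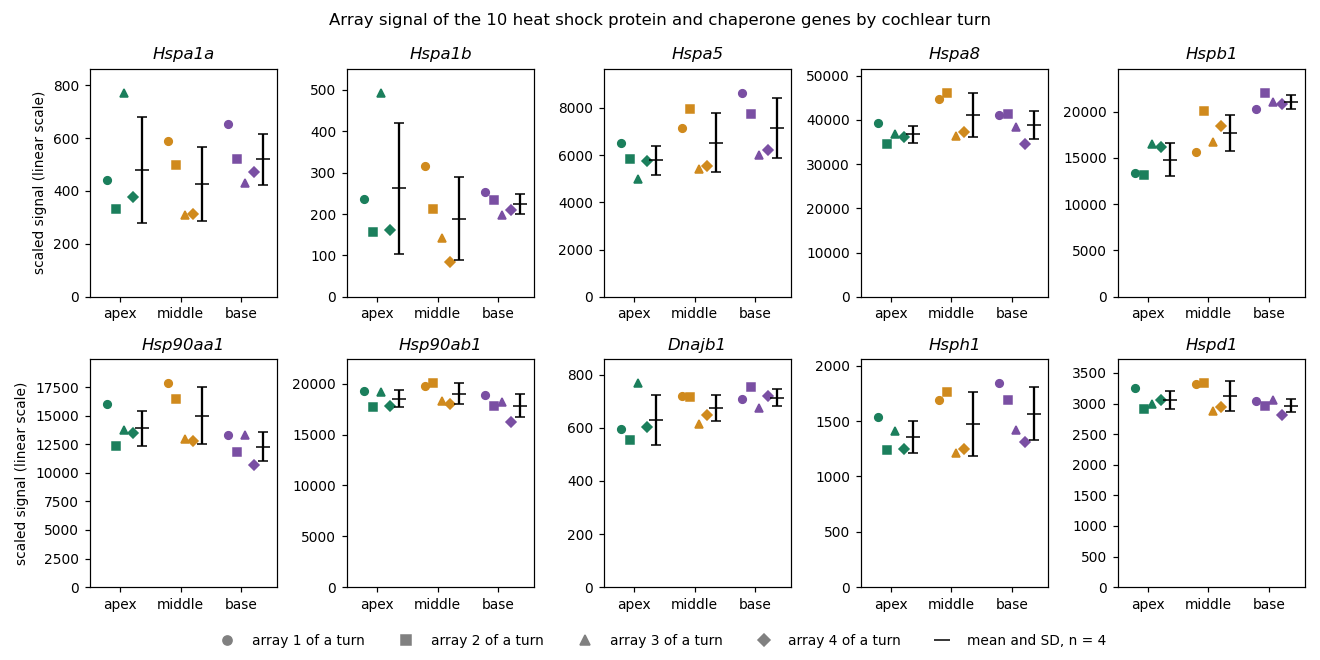
Scaled array signal (linear axis from 0) of each of the 10 genes in the 4 arrays of each turn, with symbols for the array number and the mean and SD beside them. All 4 Hspb1 arrays of the base lie above all those of the apex and middle, and the turns overlap for the other 9 genes.

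Of the 10 genes, only Hspb1 was called between apex and base, against 39.2% of all genes. It encodes HSP27, a small heat shock protein that also guards actin filaments. Its signal was 13390, 13140, 16530 and 16140 in the 4 apex arrays, 15590, 20030, 16760 and 18470 in the middle arrays, and 20250, 22000, 21060 and 20760 in the base arrays. Every base array stood above every apex and every middle array, whereas apex and middle overlapped. Mean signal was 14800 ± 1780 in apex samples, 17710 ± 1950 in middle samples and 21020 ± 735 in base samples (SD, n = 4).

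Hspb1 was therefore 1.43-fold higher in the base than in the apex (log2 difference, apex minus base, -0.51, 95% confidence interval -0.72 to -0.30, adjusted p = 0.0015). Arrays of the base and apex did not overlap in 38.3% of all genes, and a call in the direction of the base was made for 21.6% of them. Between middle and base the log2 difference was -0.25 (interval -0.46 to -0.04, adjusted p = 0.084), with arrays that did not overlap, as in 24.1% of all genes. Between apex and middle it was -0.26 (interval -0.47 to -0.05, adjusted p = 0.095), and the arrays overlapped, which held for all of the 10 genes (20.8% of all genes did not overlap). The middle thus lay between the ends, and its differences from the ends did not pass the test here. The value against the base passed without middle array 2 (-0.31, adjusted p = 0.047), and both values passed with median scaling (apex minus middle -0.31, adjusted p = 0.048, and middle minus base -0.32, adjusted p = 0.037) and with spike-in scaling (-0.49 and -0.53). The apex-to-base call held under the 5 scalings and background corrections, with a log2 difference between -1.01 and -0.27. All 3 Hspb1 probes were called lower in the apex, with log2 differences of -0.58 at base 456, -0.54 at base 520 and -0.43 at base 835.

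No gene of the 10 was called between apex and middle (12% of all genes) or between middle and base (20.9% of all genes). At an unadjusted limma p under 0.05, Hspb1 alone passed between apex and middle, and Hspb1 and Hsp90aa1 passed between middle and base. With a moderated F test over the turns and a difference of at least 2-fold, 0 of the 10 passed in any comparison, against 4.39% of all genes in apex versus base, 0.436% in apex versus middle and 2.66% in middle versus base. The median difference of the 10 genes was -0.13 for apex minus base, -0.10 for apex minus middle and -0.09 for middle minus base, beside -0.04, -0.07 and 0.04 for all genes. The comparisons share arrays and are not independent of each other.

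**Figure D2:**
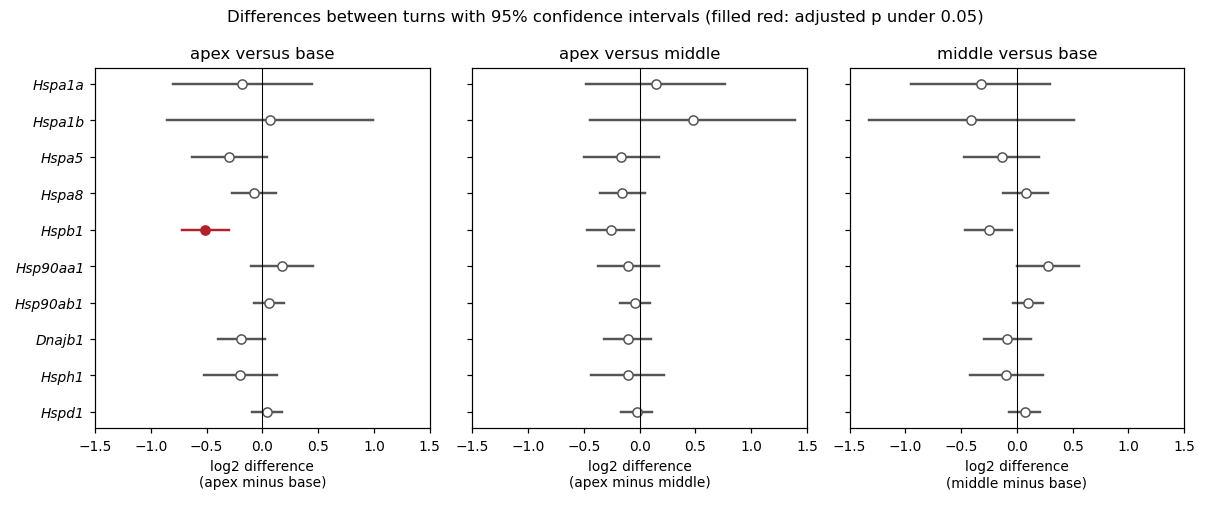
Log2 difference of each gene in the 3 comparisons of turns (horizontal axis) with its 95% confidence interval from limma, filled red where the adjusted p was under 0.05. Hspb1 in apex versus base is the only filled point, and the intervals of Hspa1a and Hspa1b are the widest in every comparison.

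Hspa1a and Hspa1b, the stress-inducible HSP70 genes, differed more between arrays of a turn than between turns. Hspa1a gave 439.7, 330.3, 770.1 and 375.7 in the apex, 589.1, 499, 307.8 and 311.2 in the middle, and 652.8, 522, 431 and 471.3 in the base. The highest of the 12 values came from the apex and the lowest from the middle, and all turns overlapped. The apex-minus-base log2 difference was -0.18 with an interval from -0.80 to 0.44 (adjusted p = 0.68).

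Hspa1b was taken from its own probe at base 2674, where the signal was 1741, 1001, 2860 and 1057 in the apex, 2488, 2105, 1038 and 955.8 in the middle, and 2603, 2287, 1165 and 1462 in the base. The same arrays stood high as for Hspa1a, namely apex 3, middle 1 and 2, and base 1 and 2. At that probe the apex-minus-base log2 difference was -0.24, and at the dim probe at base 11 it was 0.37, so the probes disagreed in sign. Averaged over both, the difference was 0.07 (interval -0.86 to 0.99, adjusted p = 0.92). Differences between turns within these intervals were not detectable with 4 arrays for each turn.

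Hspa8 encodes HSC70, the constitutive HSP70 of the cytosol, and varied far less. It ranged from 34600 to 39220 in the apex, from 36360 to 46090 in the middle and from 34450 to 41230 in the base. All turns overlapped, and the apex-minus-base log2 difference was -0.08 (interval -0.28 to 0.12, adjusted p = 0.57).

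Hspa5 encodes BiP, the HSP70 of the endoplasmic reticulum and the usual readout of the unfolded protein response. Its signal was 6503, 5837, 4979 and 5752 in the apex, 7164, 7952, 5421 and 5527 in the middle, and 8624, 7742, 5987 and 6219 in the base. The higher pair of base arrays lay above every apex array and the lower pair did not. The log2 difference between apex and base was -0.30 (interval -0.64 to 0.04), which was not called (adjusted p = 0.16). Apex was below base in 4 of 4 same-numbered pairs of arrays, and the gene was called with the sample number as a replicate block (adjusted p = 0.017) and with spike-in scaling (-0.80). All 8 probes were lower in the apex, between -0.50 and -0.11, and the probe at base 2479 alone was called (adjusted p = 0.047).

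Among the helpers of HSP70, Dnajb1 encodes the inducible HSP40. Its signal was 596.8, 553.3, 767.4 and 602.6 in the apex, 718.9, 714.8, 616.2 and 648.4 in the middle, and 707.1, 754.1, 674.7 and 719.9 in the base. Of the apex arrays, 3 lay below all base arrays, and apex 3 lay above all of them. The apex-minus-base log2 difference was -0.19 (interval -0.40 to 0.02, adjusted p = 0.14) with all arrays and -0.29 (adjusted p = 0.0094) without apex 3. No other fit with a single array left out called the gene. Dixon's test for an outlier passed in 0 of 30 groups of a gene in a turn, so apex 3 was kept.

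Hsph1 encodes HSP105, the inducible HSP110 that exchanges the nucleotide of HSP70. It ranged from 1236 to 1539 in the apex, from 1213 to 1760 in the middle and from 1314 to 1841 in the base, and all turns overlapped. The log2 difference between apex and base was -0.20 (interval -0.53 to 0.13, adjusted p = 0.34), with 16 of 17 probes lower in the apex and 0 of them called.

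The HSP90 genes had higher means in the apex than in base arrays, but none of their differences passed the test. Hsp90aa1, the inducible HSP90 alpha, gave 16050, 12340, 13710 and 13470 in the apex, 17820, 16430, 13000 and 12760 in the middle, and 13320, 11810, 13320 and 10700 in the base. The upper pair of middle arrays lay above all base arrays and the lower pair did not. The middle-minus-base log2 difference of 0.28 (interval 0.00 to 0.55) had an unadjusted limma p of 0.048 and an adjusted p of 0.14, with all 10 probes higher in the middle. For apex minus base the difference was 0.18 (interval -0.10 to 0.45, adjusted p = 0.31).

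Hsp90ab1, the constitutive HSP90 beta, had one of the narrowest intervals of the 10 genes, with signals from 17710 to 19260 in the apex, 18040 to 20040 in the middle and 16260 to 18920 in the base. Its apex-minus-base log2 difference was 0.06 (interval -0.08 to 0.19, adjusted p = 0.54). Hspd1, the HSP60 chaperonin of the mitochondrial matrix, was similar, ranging from 2910 to 3257, from 2879 to 3329 and from 2821 to 3050 in apex, middle and base. The difference was 0.04 (interval -0.10 to 0.18, adjusted p = 0.67). The sign depended on the scaling for the HSP90 genes and Hspd1, which turned negative when arrays were scaled to spike-in probes, for Hsp90ab1 and Hspd1 also under median scaling, for Hspa8, which was positive under quantile normalization, and for Hspa1b, which was negative under the 4 settings other than the main one.

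Arrays of a turn differed most in the inducible HSP70 pair among the 10 genes. The pooled SD between arrays of a turn was 0.66 log2 units for Hspa1b and 0.44 for Hspa1a, above 97.8% and 93.2% of all genes. It was 0.08 for Hsp90ab1 and Hspd1, above 19.7% and 21.7% of all genes, and the median of all genes was 0.13. Hspa5, Hsph1 and Hsp90aa1 lay between, at 0.23, 0.23 and 0.19, and Hspb1, Dnajb1 and Hspa8 were at 0.14, 0.14 and 0.13.

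Certain arrays were high for most genes at once. In the middle turn, array 2 was above the turn's mean for 10 of 10 genes and array 1 for 9, whereas array 3 was above it for 0 and array 4 for 1. In the base, arrays 1 and 2 were each above the mean for 8 genes and array 4 for 1. In the apex the genes split, since array 1 was highest for 6 genes (Hspa5, Hspa8, Hsp90aa1, Hsp90ab1, Hsph1 and Hspd1) and array 3 for the other 4 (Hspa1a, Hspa1b, Hspb1 and Dnajb1). Array 2 of the apex was the lowest for 9 of 10. The genes of an array share 1 RNA sample and 1 hybridization, and what these arrays had in common was not tested.

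**Figure D3:**
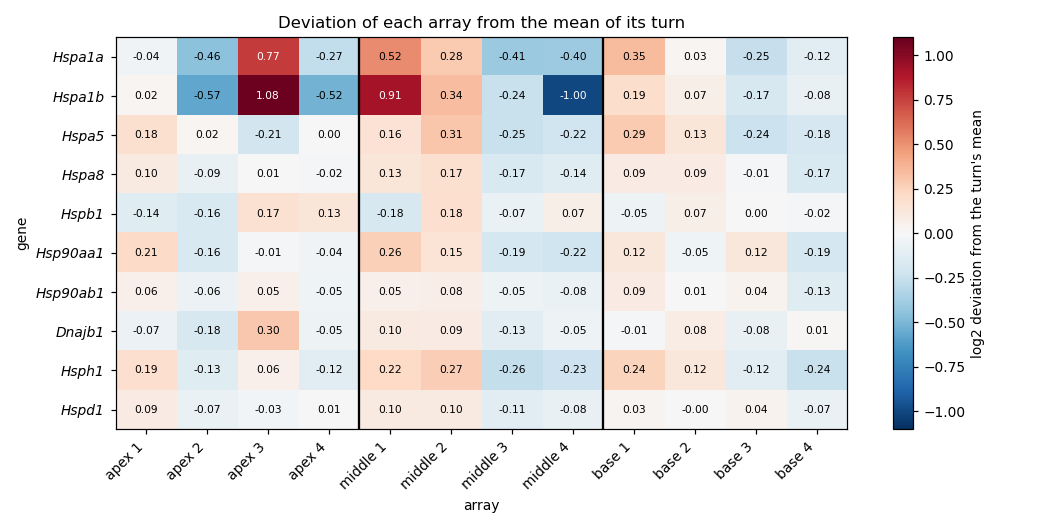
Log2 deviation of each gene (rows) on each array (columns) from the mean of the array's turn, red for above and blue for below. Apex 3 and middle 1 are high for Hspa1a and Hspa1b, and the columns of middle 3 and middle 4 are below the mean for nearly every gene.

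Probe by probe, 4 of the 73 probes were called between apex and base, against 34.4% of all probes, and all 4 were lower in the apex, a direction called for 16.4% of all probes. None of the 73 was called between apex and middle (5.91% of all probes) or between middle and base (13.8% of all probes), where 8 and 6 of them had an unadjusted limma p under 0.05. The probe values of most genes were ordered along the transcript. In Hspa5 the apex-minus-base log2 difference went from -0.11 at base 297 to -0.50 at base 2479. Hsp90ab1 was at 0.17 at its first probe and -0.21 at its last, and in Hsp90aa1 the first 8 probes lay between 0.16 and 0.32 and the last 2 at -0.15.

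For the 6 genes with 8 or more probes, the mean difference of the probes nearer the transcript end was compared with that of the probes nearer its start. It was lower on the end side in 6 of 6 genes, by 0.06 to 0.25 log2 units, namely -0.19 in Hspa5, -0.06 in Hspa8, -0.12 in Hsp90aa1, -0.25 in Hsp90ab1, -0.10 in Hsph1 and -0.20 in Hspd1. The pattern was not particular to these genes, because 73% of all 7791 genes with 8 or more probes were lower on the end side as well, with a median of -0.10. The sign differed between the sides in Hsp90ab1 (0.18 on the start side and -0.07 on the end side) and in Hspd1 (0.15 and -0.06), neither of them called. Dnajb1, with 3 probes, was called from its end-side probe alone (-0.26, adjusted p = 0.033). The same probe, at base 1075, was not called in the limma test over all probes (adjusted p = 0.05). Hspb1 was called on either side (-0.58 and -0.43) and ran opposite to those 6 genes.

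Across arrays, the end-side minus start-side log2 signal of these 6 genes, relative to its mean over the 12 arrays, had a median of -0.14, -0.11, -0.06 and -0.02 in the 4 apex arrays. It was between -0.04 and 0.04 in the middle arrays and between 0.04 and 0.10 in the base arrays. The median over all 7791 genes was -0.07 to -0.02 in the apex and 0.02 to 0.06 in the base. This measure, which moves with RNA quality and labeling, thus separated the apex from the base arrays, and its part in the gene-level differences was not tested.

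**Figure D4:**
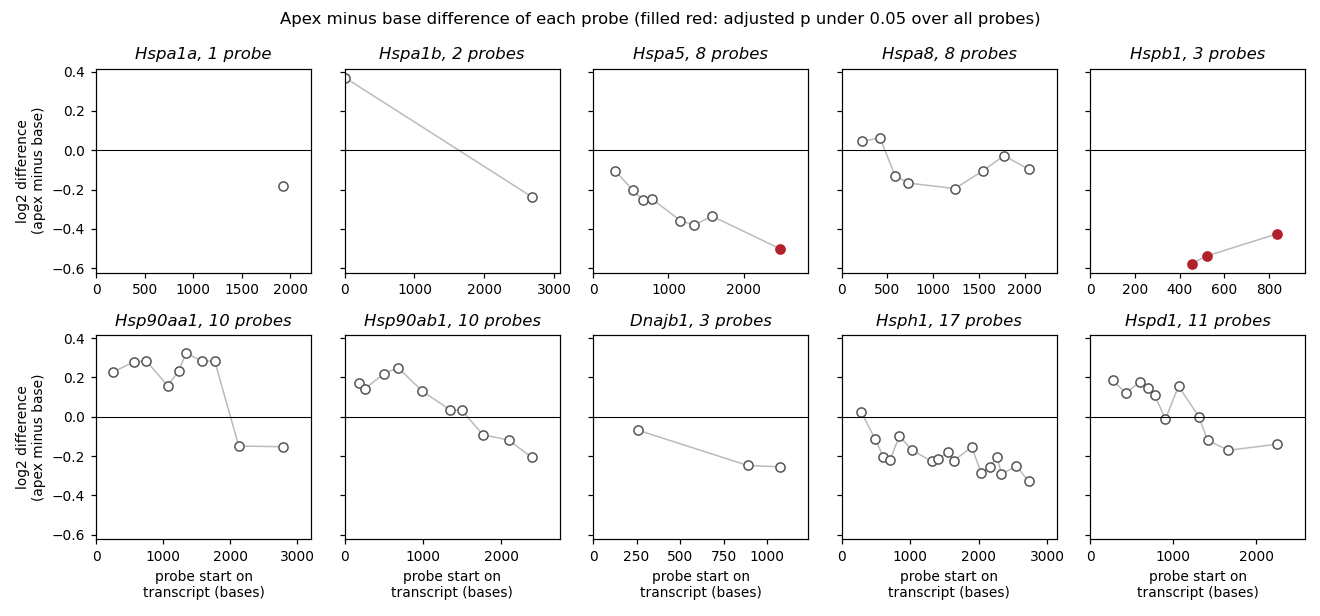
Apex-minus-base log2 difference of each probe (vertical axis) against the start of the probe on its transcript in bases (horizontal axis), 1 panel per gene, filled red where the adjusted p over all probes was under 0.05. All 3 Hspb1 probes and the last Hspa5 probe are filled, and the values fall along the transcript in Hspa5, Hsp90ab1, Hsph1 and Hspd1.

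Other genes of the same pathways were taken from 5 lists of chaperones, and in each more were called lower than higher in the apex, except for CCT under quantile normalization. Of 7 further small heat shock protein genes, 3 were called lower in the apex and 0 higher, with a median of -0.25 beside -0.04 for all genes (-0.06 with normexp background correction). Cryab, the alpha B-crystallin that pairs with HSP27, gave 24760, 24560, 25660 and 25590 in the apex, 28090, 30150, 30060 and 33670 in the middle, and 33910, 37370, 34440 and 37580 in the base. The 3 turns did not overlap, and the log2 difference between apex and base was -0.51 (adjusted p = 1e-04), the same size as in Hspb1. Hspb8, the partner of Bag3 in selective autophagy, differed by -0.49 (adjusted p = 0.0032) and Hspb2 by -0.30 (adjusted p = 0.0093).

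In the endoplasmic reticulum, where BiP works, 16 of 28 genes of chaperones and the unfolded protein response were called lower in the apex and 1 higher, with a median of -0.28. Sdf2l1, which works with an HSP40 partner of BiP, was at 634.9, 675.9, 659.4 and 763.9 in the apex, at 838.1 to 1010 in the middle and at 1101, 1181, 1089 and 1203 in the base. Its log2 difference between apex and base was -0.74 (adjusted p = 3.1e-05), and the turns did not overlap. Creld2, a stress-induced protein of the endoplasmic reticulum, differed by -0.60 (adjusted p = 0.00032). Manf, a secreted stress-induced factor, differed by -0.69 (adjusted p = 0.036), although middle array 2 gave 1117 against 465.6 to 657.5 in the other middle arrays. Sel1l, which takes part in disposal of misfolded proteins, was higher in the apex by 0.25 (adjusted p = 0.0021), but lower by 0.25 under spike-in scaling. The list's count lower in the apex was 16 to 28 of 28 under the 5 scalings and background corrections. Of all 19505 genes, 4205 to 14557 were called lower in the apex under the same settings. Both ranges had their highest value under spike-in scaling.

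Of 31 cytosolic co-chaperones and relatives of HSP70 and HSP40, 10 were called lower in the apex and 1 higher, with a median of -0.09. Under the 5 scalings and background corrections the count lower in the apex was 7 to 29, the highest under spike-in scaling. Quantile normalization gave 7 lower and 4 higher with a median of 0.01. The largest differences were in Dnajb6, an HSP40 that suppresses aggregation (-0.53, adjusted p = 1.5e-05), Bag3, the HSP70 co-chaperone of selective autophagy (-0.51, adjusted p = 2.7e-05), and Dnajb5 (-0.34, adjusted p = 0.0082). Bag3 gave 699.8 to 765.4 in the apex, 718.7 to 769.9 in the middle and 989.4 to 1110 in the base, so that only the base stood apart. Hspa2, an HSP70 best known from the testis, ran opposite, at 4852 to 5812 in the apex, 4062 to 4379 in the middle and 2468 to 3252 in the base. It was 1.86-fold higher in apex than base samples (adjusted p = 2.5e-05) and higher there under all 5 scalings and corrections.

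Mitochondrial chaperones and proteases, the surroundings of HSP60, were called lower in the apex in 5 of 10 genes and higher in 0, with a median of -0.14. The count lower was 4 to 10 under those settings, the highest under spike-in scaling. Clpp, a matrix protease (-0.42, adjusted p = 0.0061), Grpel1, the nucleotide exchange factor of mitochondrial HSP70 (-0.27, adjusted p = 0.0024), and Lonp1, another matrix protease (-0.27, adjusted p = 0.0022), differed most. Of the 8 subunits of CCT, the cytosolic chaperonin that folds actin and tubulin, Cct7 (-0.21), Cct3 (-0.17) and Cct2 (-0.17) were called lower in the apex (adjusted p = 0.0074, 0.037 and 0.013), but under quantile normalization 0 subunits were called lower and 2 were called higher. The share called in either direction was 60.7% for the endoplasmic reticulum list, 50% for the mitochondrial list, 42.9% for the small heat shock proteins, 37.5% for CCT and 35.5% for the cytosolic list. Of all genes, 39.2% were called, and 21.6% were called lower in the apex. All genes include undetected ones, whereas nearly every list gene had a probe detected on each array (28 of 28 in the endoplasmic reticulum list). The shares are therefore not matched for detection.

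In the endoplasmic reticulum list, 5 of 28 genes were called lower in the apex than in the middle and 7 lower in the middle than in the base, with 0 called higher in either, which is 17.9% and 25% of the list beside 12% and 20.9% of all genes. These counts rested on single arrays. The first was 9 with the replicate block, and 1 or 2 without apex 1, 2 or 3 or middle 2 or 4. Of all genes, 2343 were called in it with every array, 3319 with the block, and 965 to 1410 without 1 of those arrays. The second was 2 without middle 1 or base 2, 3 without base 4, 4 without middle 3 or base 1, and 10 without middle 2. There 4071 of all genes were called with every array, and 2714, 2659 and 2980 without middle 1, base 2 or base 4. Without middle 3, base 1 or middle 2 it was 4752, 3445 and 3420. Hspa2 was called higher in the apex than in the middle (0.37, adjusted p = 0.023) and higher in the middle than in the base (0.52, adjusted p = 0.0027).

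**Figure D5:**
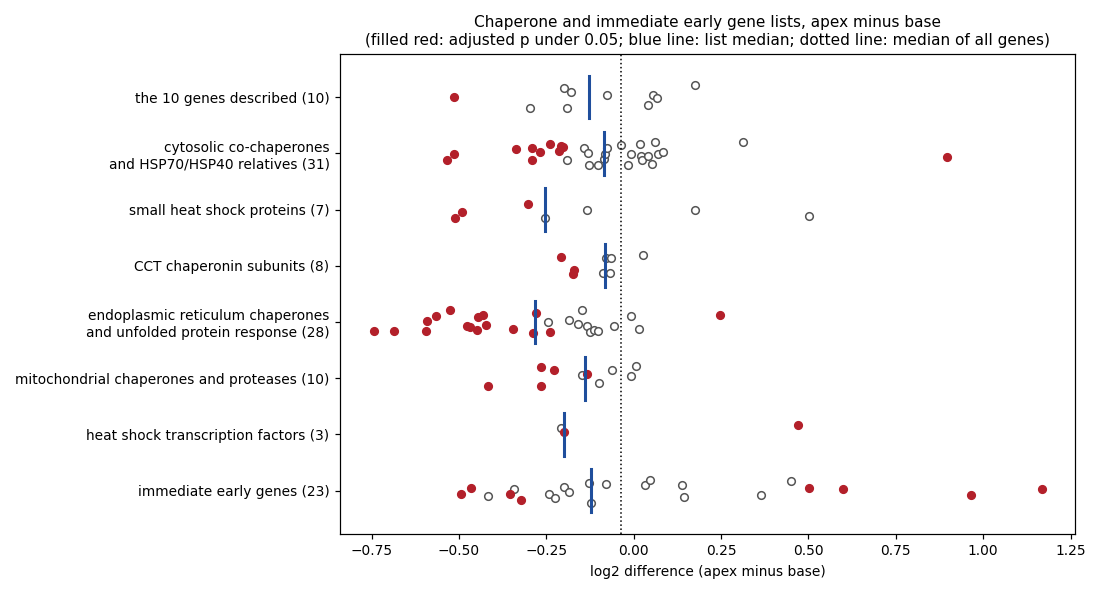
Apex-minus-base log2 difference (horizontal axis) of every gene in the 10-gene set and in 7 gene lists, with the number of genes in parentheses, filled red where the adjusted p was under 0.05, blue lines at list medians and a dotted line at the median of all genes, -0.04. Most filled points of the endoplasmic reticulum list lie left of 0.

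Heat shock factors drive the inducible genes. Hsf1, the main stress regulator, gave 419.5, 419.2, 425 and 427.2 in the apex, 445.5, 483.3, 445.8 and 458.6 in the middle, and 473.1, 500.3, 457.9 and 513 in the base. The apex arrays lay below all others, and the log2 difference between apex and base was -0.20 (adjusted p = 0.0074). Hsf2 differed by -0.21, which did not pass the test. Hsf4, known from the lens, was higher in the apex by 0.47 (adjusted p = 0.03), but it was not called under the other 4 scalings and corrections and was at -0.03 under spike-in scaling.

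Immediate early genes, which respond to handling and stress within minutes, were examined because they can move with inducible chaperones. Of 23 such genes, 4 were called higher in the apex and 4 called lower, relative to the base, together 34.8% of the list beside 39.2% of all genes. Under the 5 scalings and background corrections 2 to 4 were called higher and 4 to 15 lower, the 15 under spike-in scaling. Egr2, which is also a regulator of myelination, was at 340.9, 316.8, 399 and 298.9 in the apex, 300.3 to 433.2 in the middle, and 131.3, 107.1, 224.9 and 159.7 in the base, a log2 difference of 1.17 (adjusted p = 0.00099). Myc differed by 0.97 (adjusted p = 0.0019) and Egr3 by 0.60 (adjusted p = 0.041), the latter with no probe detected on every array. Egr3 was called in 1 of the 5 settings, the main one, and was at 0.08 with normexp background correction (adjusted p = 0.54). Klf4 (-0.49, adjusted p = 6e-04), Zfp36 (-0.47, adjusted p = 0.0011) and Cyr61 (-0.36, adjusted p = 0.041) were lower in the apex. The summed signal of all 23 genes was 28910 to 32630 in the apex, 31480 to 36810 in the middle and 35330 to 38800 in the base. Single genes did not all follow this sum, since 14 were higher and 8 lower in the middle than in the base.

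Several cell type sums were also ordered from apex to base as Hspb1 was, although a sum is weighted to its brightest markers. The summed signal of the 6 fibrocyte markers was 279000 to 308600 in the apex, 373800 to 418700 in the middle and 529600 to 595200 in the base, and that of the 9 stria vascularis markers was 52230 to 59400, 65620 to 88750 and 77710 to 96080. For the 7 macrophage markers it was 4035 to 4837, 4488 to 4916 and 5607 to 6943. Neuron markers ran opposite, with sums of 28260 to 37060 in the apex, 25520 to 45460 in the middle and 5422 to 23660 in the base, and base 3 gave the highest of the base values. Every marker of these types had a probe detected on each array, and the part of cell composition in the Hspb1 difference was not tested.

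Genes whose 12 values were most like those of a member were sought among 15999 genes having at least 1 probe detected well above background throughout, as a description over arrays that share turn, slide and scaling. Hspb1 was followed most closely by Il3ra (Pearson r = 0.954), a cytokine receptor subunit, Limd1 (0.952) and Slc25a38 (0.95), a mitochondrial glycine carrier. For Hspa5 they were Nap1l4 (0.956), Bzw1 (0.95) and Mfhas1 (0.927). For Hspa1a the closest were Atf3 (0.839), a stress-induced transcription factor, Prss41 (0.821) and Chordc1 (0.779), an HSP90 co-chaperone. Atf3 gave 70.19, 54.92, 88.34 and 59.15 in the apex, 85.67, 61.79, 55.1 and 62.22 in the middle and 70.37 to 76.11 in the base, so that apex 3 and middle 1 stood high as they did for Hspa1a.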

How the data were processed

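Gene expression was measured on 12 single-color Agilent mouse exon arrays, grouped by the turn in their labels. The deposited values are spot intensities that the authors extracted with Agilent Feature Extraction 10.7.3.1, with background subtracted and no normalization between arrays. A deposited value table held the same intensities. Control spots and 622 flagged spots of 180880 were left out. Each array was scaled to the 75th percentile, which the median array had at 641.3, signals were log2 transformed without a pseudocount, and spots of a probe and then probes of a gene name were averaged. Turns were compared with limma 3.58.1 (lmFit and eBayes) in R 4.3.3 with all 12 arrays in the fit and Benjamini-Hochberg adjustment across 19505 genes or 165865 probes. Each turn lay on its own slide, so no slide term could be fitted. The number of arrays limits the precision.

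The study's methods used a one-way analysis of variance, which was run as an alternative. Other alternatives were quantile, median and spike-in scaling, normexp with offset 50, probes well above background, 16 added to each signal, flagged spots kept, probe medians, grouping by transcript, trend and robust options, 8 arrays alone, a replicate block, each array left out, and, added after seeing the data, only the start-side or only the end-side probes of a transcript. In 12 simulated arrays with independent normal noise, 200 of 19505 genes were changed in the apex. Of these, 61 of 100 genes changed by 0.5 and 90 of 100 changed by 1 on the log2 scale were recovered, with 11 others called. Far more genes were called in the data themselves (39.2% in apex versus base), so these rates do not give the sensitivity of the real tests. The 10 genes and the lists were chosen with earlier results of these data known. From each list, up to 3 genes in each direction with the largest apex-to-base difference among those called were named, with the heat shock factors and the 3 genes most like Hspa1a, Hspa5 and Hspb1. Further genes were named after their values were seen. Promoter windows and names were RefSeq entries on GRCm38.p6, and probe coordinates were those of the array files on mm9.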

Additional observations from a re-analysis of the deposited data

How the results depend on the processing

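Hspb1 was called lower in the apex than base under 28 of 28 alternatives. These include the plain F test, which is a single test over the 3 turns, and the deposited value table, which held the same intensities as the main fit. They also include fits without a middle array, which kept the same apex and base values. The alternatives share the same arrays and are not independent checks. The 28 leave out the F test with the 2-fold rule, which called none of the 10 genes. The number of the 10 genes called in that comparison was 4 under quantile normalization, 2 under median scaling, 9 under spike-in scaling, 2 with the end-side probes (added after seeing the data), 0 with the F test and 2-fold rule, and 1 to 2 when single arrays were left out (2 without apex replicate 3). Of all 19505 genes, 7645 were called in the main fit, 7910 under quantile normalization, 8557 under median scaling and 15313 under spike-in scaling. Quantile normalization called Hsp90aa1 (0.42), Hsp90ab1 (0.32) and Hspd1 (0.21) higher in the apex, whereas spike-in scaling reversed them to -0.32, -0.44 and -0.46. Spike-in scaling moved the median of all genes from -0.04 to -0.54, relative to which they were at 0.21, 0.09 and 0.08, and the share of all calls that were higher in the apex from 45% to 4.94% (26.5% with median scaling, 36.8% with quantile normalization). Between apex and middle, 1 gene was called with median scaling, 5 with spike-in scaling, 1 with the plain F test and 0 to 0 with single arrays left out. Of all genes, 3549 were called there with median scaling, 8701 with spike-in scaling and 7341 with the plain F test. Between middle and base the counts of the 10 genes under the same settings were 1, 2, 1 and 0 to 1. Of all genes, 4625, 7851 and 7341 were called there with median scaling, spike-in scaling and the plain F test. Of the 73 probes, 21 were called between apex and base under quantile normalization, 19 under median scaling, 61 under spike-in scaling, 7 with normexp, 8 among probes well above background, 9 with trend and robust options, and 3 to 5 with single arrays left out. Calls over all probes were not counted under these settings, so these probe counts have no share beside them. In the main fit 4 of the 73 were called, against 34.4% of all probes. With sample numbers as a replicate block, 2 genes (Hspa5 at -0.30, adjusted p = 0.017, beside Hspb1) and 10 probes were called between apex and base. Of all genes, 8167 were called there with the block. The correlation of deviations was over 0.1 in 6 of 12 same-numbered pairs of arrays (mean 0.095, against -0.031 for other numbers), so the data did not settle whether a number marks 1 mouse. The causes of these changes were not tested. Dim signals are limited by background subtraction.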
